A study of Mus musculus with 12 samples.

Results

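Imprinted genes were described in mouse lung tumors and in normal mouse lung. The members were 34 gene symbols of known imprinted domains, matched by annotated symbol to the identifiers of a table of 30399 genes. Of these, 27 were found, and Igf2, Ndn, Magel2, Nnat, Kcnq1ot1, Peg13 and Zrsr1 are not analysed here. The series holds poly-A selected, paired-end RNA sequencing of 5 samples labelled normal lung and 7 labelled tumor, 12 in all. Its title says that the mouse lung cancer models were made by CRISPR/Cas9 mutagenesis without a virus. The genes that were mutated, the strain, the sex and the age of the mice are not given in the labels, and nothing is said of a treatment of the normal lungs. The titles add that tumors 1 and 7 are from the trachea and tumors 3 to 6 from the lung, and they give no site for tumor 2. A number in the titles is 159 for tumors 3 and 4 and 201 for tumors 5, 6 and 7, whereas tumor 1 (153) and tumor 2 (156) each have their own. What the number stands for is not stated. The labels do not say whether samples of a group came from separate animals, so p-values measure only the spread between these samples.

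An imprinted gene is transcribed mainly from the chromosome inherited from one parent. The choice is set by DNA methylation laid down in the egg or the sperm at an imprinting control region, which usually governs several neighbouring genes, some read from the maternal and some from the paternal chromosome. Many imprinted genes act on fetal and placental growth, and in many tissues their RNA declines after birth. The counts used here are summed per gene, so they show the level of each RNA but not which parental copy it came from.

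In the Peg3 domain a single CpG-rich region holds the starts of 2 paternally expressed genes that point away from each other, Peg3 and Usp29. It is shown because both genes rose in tumors, by different amounts, and the capitals run from the Usp29 start to the Peg3 start, which lie 164 bases apart. The RefSeq promoter window of Peg3 (mouse build GRCm38.p6, chr7:6730370-6730669, minus strand, 5′ to 3′) overlaps that of Usp29 by 263 bases and holds 13 CpG dinucleotides.
Peg3-Usp29 promoter: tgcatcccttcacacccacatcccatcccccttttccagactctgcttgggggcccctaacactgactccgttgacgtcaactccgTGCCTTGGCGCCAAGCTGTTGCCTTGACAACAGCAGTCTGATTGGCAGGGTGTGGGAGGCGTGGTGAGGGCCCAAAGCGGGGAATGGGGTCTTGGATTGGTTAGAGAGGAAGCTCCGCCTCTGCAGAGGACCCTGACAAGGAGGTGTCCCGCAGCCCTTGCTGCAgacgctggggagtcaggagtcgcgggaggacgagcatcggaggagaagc
The window of Meg3 (GRCm38.p6, chr12:109540746-109541045, plus strand, 5′ to 3′) is shown because Meg3 had the highest counts of its domain. It also holds 13 CpG dinucleotides and 1 match to the hexamer TGCCGC, the motif bound by the imprint-keeping protein ZFP57 when methylated. The match is in capitals and reads on the opposite strand, 190 bases before the start.
Meg3 promoter: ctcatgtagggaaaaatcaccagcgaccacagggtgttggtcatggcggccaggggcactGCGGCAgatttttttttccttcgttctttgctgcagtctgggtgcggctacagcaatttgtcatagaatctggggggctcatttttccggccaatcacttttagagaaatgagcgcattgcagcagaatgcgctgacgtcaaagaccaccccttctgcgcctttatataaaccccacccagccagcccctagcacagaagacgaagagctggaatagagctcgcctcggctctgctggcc

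RefSeq windows of 300 bases, from 250 before to 50 after a start, were found for 20 of the 27 members, 34 windows in all. The hexamer TGCCGC, searched on both strands, was in 9 of these 34 windows (26.5%), which belong to 8 members, and in 11.6% of all 32817 windows. The median number of CpG dinucleotides was 13 in the members' windows and 7 in all windows. These are descriptions of sequence, not of binding or methylation, neither of which was measured here.

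The maternally expressed RNAs Meg3, Rian and Mirg carry a large array of microRNAs. RefSeq places 57 hairpins from Meg3 to Mirg, 54 of them on the strand of Meg3, with 3 inside Rian and 14 inside Mirg, while 6 lie opposite to Rtl1. Poly-A selected RNA does not report mature microRNAs, so the 5 sequences below are shown only for what the host RNAs can carry. Their seeds (bases 2 to 8, in capitals) are all different. The mature RNAs of miR-127 and miR-433 lie opposite to Rtl1, that of miR-370 in Rian, and those of miR-134 and miR-410 in Mirg.
mmu-miR-127-3p: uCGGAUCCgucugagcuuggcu
mmu-miR-433-3p: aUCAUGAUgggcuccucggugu
mmu-miR-370-3p: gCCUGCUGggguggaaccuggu
mmu-miR-134-5p: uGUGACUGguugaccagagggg
mmu-miR-410-3p: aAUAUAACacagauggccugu

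Depth and tissue set the frame for all values. Normal lungs had 11126432 to 17032234 reads assigned to genes and tumors 13093843 to 24217633, and 3 reads corresponded to a normalized count of at most 4.85 and 3.57 in the 2 groups. Counting limits of this kind cover counting error only. The normal samples had the summed RNA of 10 alveolar epithelial markers at 202478 to 333684 normalized counts, and the tumors at 1310 to 4140. The 10 neuroendocrine markers summed to 288 to 404 in normal lung and to 36541 to 133938 in tumors, and all 10 rose in limma's test. The 10 endothelial markers all fell (72085 to 83178 against 2931 to 7589), and so did 8 of 9 leukocyte markers (85830 to 165668 against 391 to 15757, with Cd3e and Cd8a among those at 0 in at least 1 tumor). Lyz2 made up most of the leukocyte sum in normal lung, at 78689 to 157579 against 134 to 5613 in tumors. In tumor 7 Ptprc (3291), Cd8a (1284) and Itgax (1840) were above every normal lung, while the other leukocyte markers listed were not. Cd8a was also above every normal lung in tumor 6 (489). In bulk tissue, fewer cells of a type and less RNA per cell cannot be told apart. The mean log2 level of 4 Y-linked genes was 9.18 to 9.43 in normal lungs 1, 2, 4 and 5 and 9.14 in tumor 1, whereas it was 0 in normal lung 3 and at most 1.48 in tumors 2 to 7. The Y-linked level and the group therefore largely cannot be told apart, and values fitted with Y-linked RNA as a covariate, an alternative added after seeing the data, are given where they end a member's call or that of a gene named from the other lists.

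More imprinted genes rose than fell. Tumor and normal lung were compared by limma on log2(normalized count + 1) over all 23674 genes with a mean count of at least 1, and a gene passed at an adjusted p under 0.05. Of the 26 members tested, 18 passed, beside 61.5% of all genes tested. Of these, 15 were higher in tumors, where 31.4% of all genes tested were called higher. The other 3 were lower, beside 30.1% of all genes, and 8 members did not pass. The members' median change was 0.81 on the log2 scale, against 0.04 over all genes tested. In 9 members the 2 groups did not overlap, 6 with every tumor above and 3 with every tumor below every normal lung, beside 38.4% of all genes tested without overlap (20.1% above and 18.4% below). With Y-linked RNA as a covariate, 5 members stayed higher (Dlk1, Usp29, Peg10, Gnas and Nespas) and 3 lower. That is 19.2% of the members higher, below the 24.8% of all genes called higher in the same fit, in which 24.3% were called lower. When tumors with the same number in their titles were averaged, 10 members were higher and 4 lower, beside 29.8% and 30% of all genes.

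**Figure D1:**
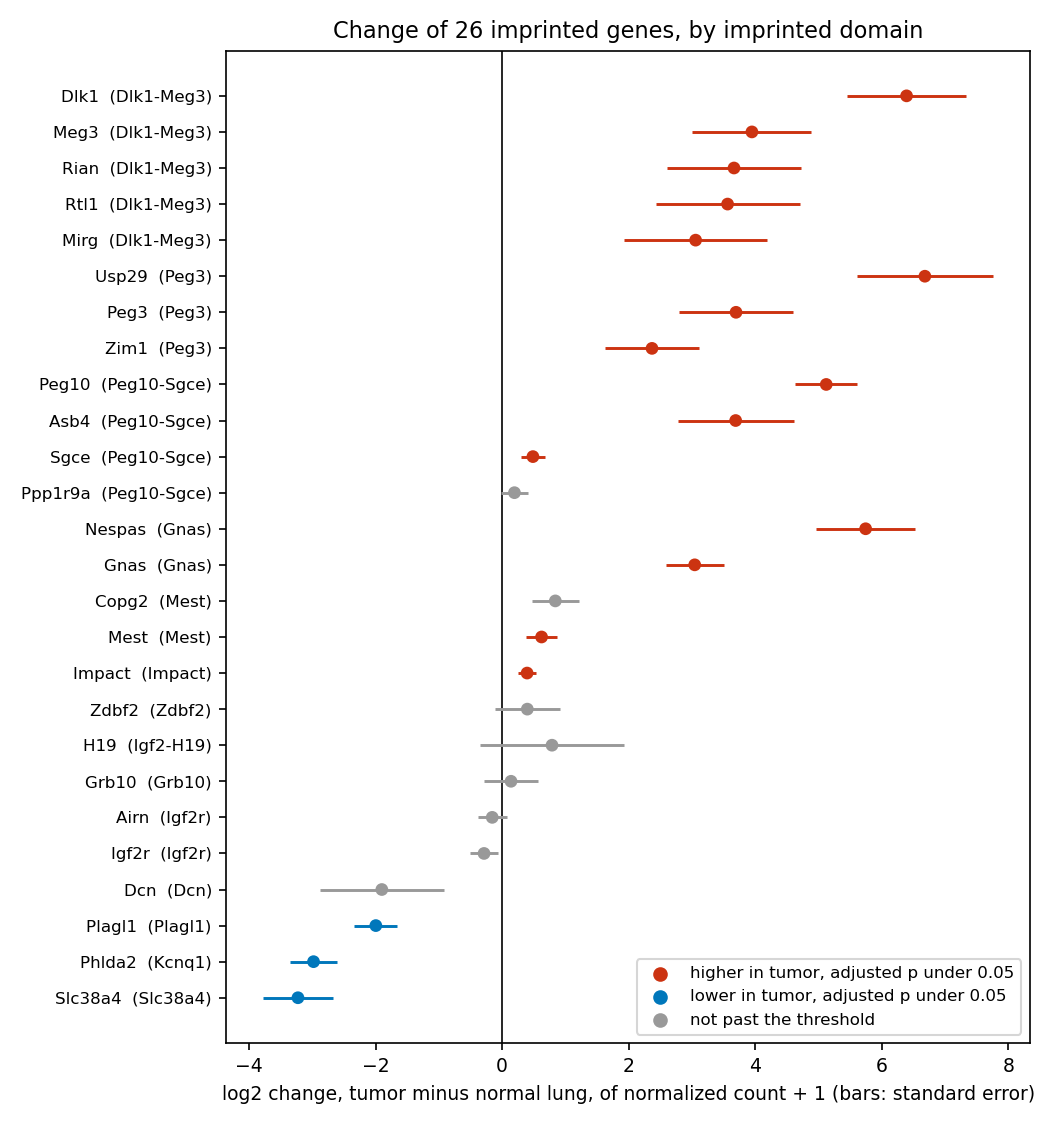
Change of each of the 26 tested members, tumor minus normal lung, on the log2 scale of normalized count + 1, with bars of 1 standard error from limma (5 normal lungs, 7 tumors) and the imprinted domain in brackets. Red points (15) passed as higher, blue points (3) as lower, and grey points (8) did not pass; Usp29 and Dlk1 are at the top of the scale and Slc38a4 at the bottom.

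All 5 members of the Dlk1-Meg3 domain rose. This domain on chromosome 12 holds paternally expressed protein genes, Dlk1 and Rtl1, and maternally expressed noncoding RNAs, Meg3, Rian and Mirg. Dlk1 encodes a membrane protein of the Notch ligand family that restrains differentiation and is a known marker of neuroendocrine and fetal cells. No read of Dlk1 was counted in any of the 5 normal lungs. Across tumors 1 to 7 its normalized counts were 6.33, 71.5, 869, 438, 31.5, 107 and 40.3. Every tumor was therefore above every normal lung, and the 2 tumors that share number 159 were the highest. Set against the limit of 3 reads per library in normal lung (a normalized count of 4.85), the tumor mean was at least 46.1-fold higher, or at least 23.9-fold without tumor 3. The fitted change was 6.39 ± 0.94 (SE, limma, adjusted p = 5.98e-05), a value that depends on the pseudocount because the normal lungs are at 0.

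Meg3, a long noncoding RNA described as a growth suppressor, was the most abundant RNA of the domain. Its normalized counts were 637, 218, 522, 214 and 1192 in normal lungs 1 to 5. Over the 7 tumors, in order, they were 610, 947, 19459, 28475, 14297, 17987 and 9694. Tumors 1 and 2 lay within the range of normal lung. The other 5, which carry only the title numbers 159 and 201, lay above it. The change was 3.95 ± 0.94 (SE, limma, adjusted p = 0.00251). With the Y-linked covariate it was 2.66 (limma, adjusted p = 0.0715).

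Rian, the host RNA of a snoRNA array, had counts of 58.0, 49.5, 74.3, 62.1 and 102 in normal lungs 1 to 5. From tumor 1 to tumor 7 the Rian counts were 40.5, 92.9, 4698, 3314, 2441, 2402 and 1004. Tumors 1 and 2 again did not exceed the highest normal lung, and the change was 3.67 ± 1.07 (SE, limma, adjusted p = 0.00884). Rtl1, a protein gene derived from a retrotransposon and needed for the fetal vessels of the placenta, had 8.60 to 19.5 counts in normal lung. In tumors 1 to 7 Rtl1 had 5.06, 15.5, 817, 1000, 311, 424 and 184 counts (change 3.56 ± 1.14, SE, limma, adjusted p = 0.0148). Mirg, the microRNA host at the end of the domain, had 9.87 to 25.3 counts in normal lung and 8.86, 8.34, 665, 863, 376, 501 and 247 in tumors 1 to 7. Tumors 1 and 2 were the only tumors below the lowest normal lung for Mirg, and the other 5 were all above the highest.

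The Mirg call was the least firm of the domain, with a change of 3.06 ± 1.13 (SE, limma, adjusted p = 0.0302). Leaving out any 1 of normal lungs 2 and 4 or tumors 3, 4, 5 and 6 ended the call, at adjusted p from 0.0543 without normal lung 2 to 0.0673 without normal lung 4 (limma). With the Y-linked covariate the changes of Rian, Rtl1 and Mirg were 2.08, 1.81 and 1.62, with adjusted p of 0.194, 0.282 and 0.355 (limma). When same-numbered tumors were averaged, they were 2.58, 2.46 and 1.90, with adjusted p of 0.0766, 0.113 and 0.207 (limma). With those tumors treated as correlated, Mirg alone of the 5 was lost (limma, adjusted p = 0.0618).

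**Figure D2:**
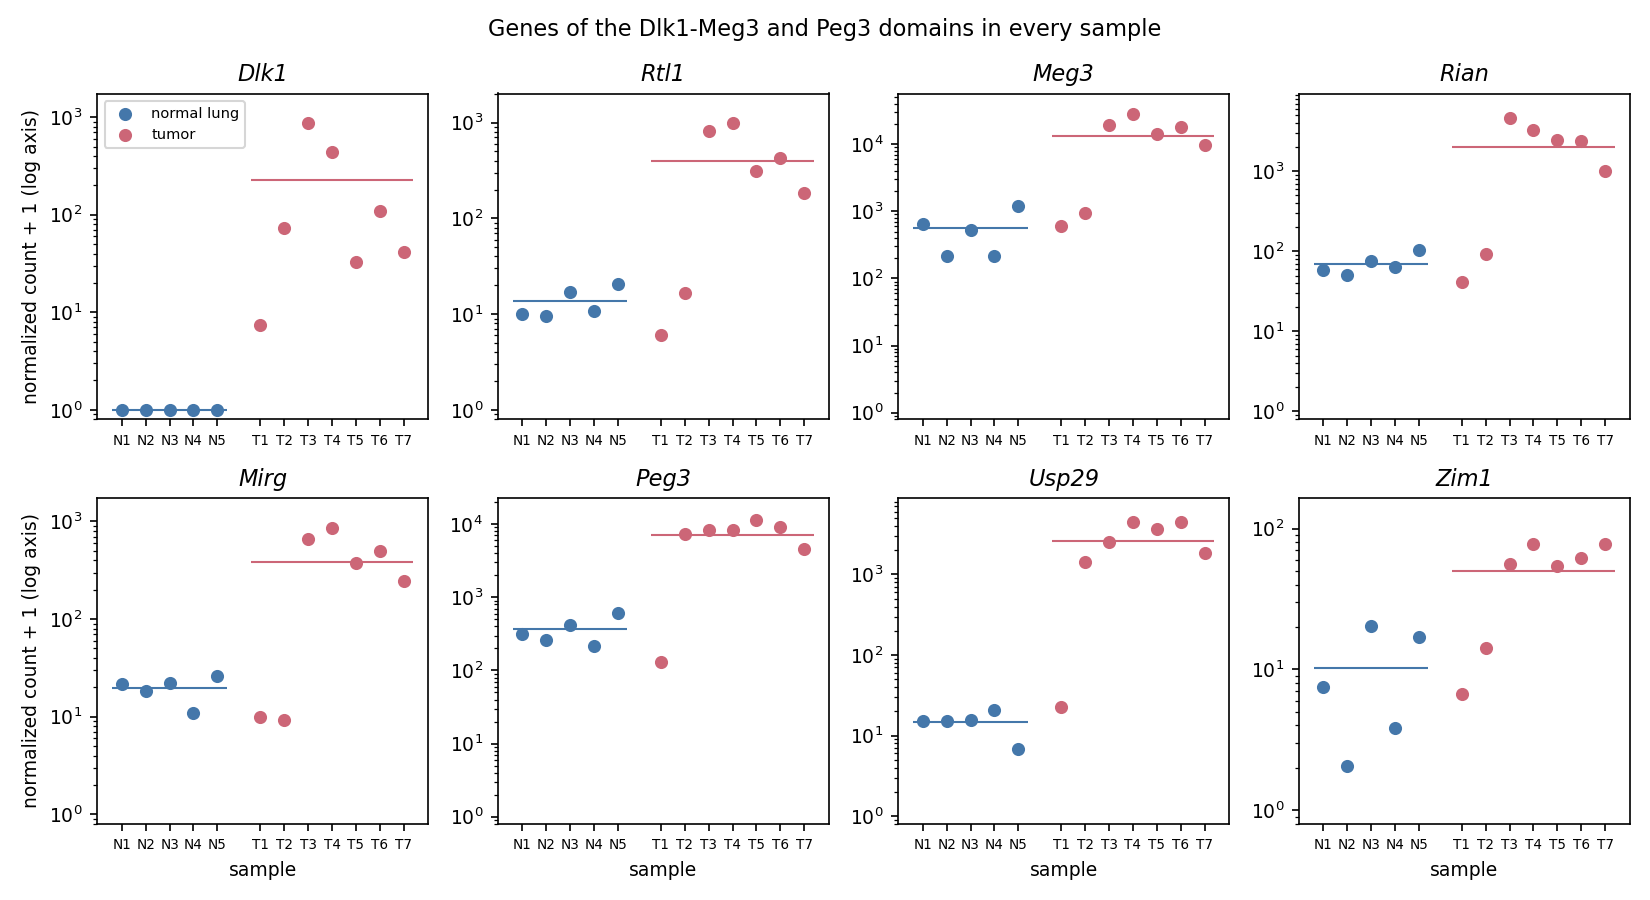
Normalized count + 1 on a log axis in each of 5 normal lungs (N1 to N5, blue) and 7 tumors (T1 to T7, red) for the Dlk1-Meg3 domain (Dlk1, Rtl1, Meg3, Rian, Mirg) and the Peg3 domain (Peg3, Usp29, Zim1); lines are group means. For Meg3, Rian, Rtl1, Mirg and Zim1, tumors 1 and 2 sit at or near the normal lungs, whereas for Peg3 and Usp29 only tumor 1 does.

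All 3 members of the Peg3 domain rose. Peg3 encodes a large zinc finger protein that binds DNA and is linked to maternal behaviour and growth. Its counts in normal lungs 1 to 5 were 309.5, 256, 415, 217 and 615. Across tumors 1 to 7 they were 131, 7218, 8297, 8303, 11339, 9189 and 4612. Tumor 1 was below every normal lung and the other 6 tumors were above all of them, with a change of 3.70 ± 0.91 (SE, limma, adjusted p = 0.00308). Usp29, a gene of the ubiquitin protease family that starts in the same CpG-rich region, had counts of 14.2, 14.0, 14.5, 19.7 and 5.75 in normal lungs 1 to 5. Over the 7 tumors, in order, the Usp29 counts were 21.5, 1446, 2540, 4431, 3720, 4439 and 1863. All 7 tumors were above the highest normal lung, tumor 1 only just, and the tumor mean was 193 times the normal mean.

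The change of Usp29 was 6.68 ± 1.08 (SE, limma, adjusted p = 0.000131). Its exons share sequence with the listed gene Zim3 on the opposite strand, and the use of strand in counting is not given in the sources used here. Zim1, a maternally expressed zinc finger gene next to Peg3, was low throughout, at 1.08 to 19.4 in normal lung and 5.70, 13.1, 54.5, 77.2, 53.4, 60.65 and 76.9 in tumors 1 to 7 (2.37 ± 0.74, SE, limma, adjusted p = 0.0136). As for Meg3, tumors 1 and 2 lay within its normal range. With the Y-linked covariate the changes of Peg3 and Zim1 were 1.69 and 0.89 (limma, adjusted p = 0.127 and 0.364), and with same-numbered tumors averaged Zim1 was at 1.78 (limma, adjusted p = 0.101).

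Of the 4 members in the Peg10-Sgce domain, 3 rose, and by very different amounts. The domain did not rise as a whole, since Pon2, an imprinted gene near Peg10 that is not a member, changed by -3.08. Peg10 is a retrotransposon-derived gene needed for the placenta, and its RNA is raised in several neuroendocrine cancers. Peg10 counts were 98.0, 112, 82.4, 46.6 and 73.6 in normal lungs 1 to 5. From tumor 1 to tumor 7 they were 765, 10337, 3547, 1644, 2517, 2988 and 3799. Every tumor was above every normal lung, tumor 2 was the highest, and the tumor mean was 44.3 times the normal mean. The change was 5.12 ± 0.49 (SE, limma, adjusted p = 1.05e-06).

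Sgce, which encodes a sarcoglycan and has its start beside that of Peg10, had 777 to 1082 counts in normal lung and 1164, 1521, 1490, 1986, 1400, 1443 and 817 in tumors 1 to 7. Here 6 of 7 tumors were above the highest normal lung, and the change was 0.49 ± 0.19 (SE, limma, adjusted p = 0.0417). That call is weak. It was lost with any 1 normal lung left out, or any 1 of tumors 2 to 6, at adjusted p from 0.05003 without normal lung 5 to 0.110 without normal lung 3 (limma), with same-numbered tumors treated as correlated (limma, adjusted p = 0.0586), with no filter on low values (limma, adjusted p = 0.0518) and with the Y-linked covariate (limma, adjusted p = 0.0920). Asb4, a maternally expressed gene for a subunit of a ubiquitin ligase, had counts of 12.9, 11.8, 48.5, 5.64 and 27.6 in normal lungs 1 to 5. In tumors 1 to 7 the Asb4 counts were 9.50, 357, 647, 630, 128, 293 and 530. Tumor 1 lay within the normal range, and the other 6 tumors were above it (3.69 ± 0.92, SE, limma, adjusted p = 0.00335, and 1.51 with adjusted p = 0.143 with the Y-linked covariate). Ppp1r9a, which encodes the actin-binding protein neurabin, did not pass, with 1793 to 2965 counts in normal lung and 1750 to 3938 in tumors (0.19 ± 0.22, SE, limma, adjusted p = 0.4505).

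Both members of the Gnas domain rose in every tumor. Gnas encodes the stimulatory G protein subunit that couples hormone receptors to cyclic AMP, and other products of the locus include the granin-like protein of neuroendocrine secretory vesicles. Gnas counts were 2859, 2957, 3038, 3593 and 2166 in normal lungs 1 to 5. Across tumors 1 to 7 they were 6896, 16224, 59255, 50938, 18401, 44339 and 15697. The lowest tumor, again tumor 1, was above the highest normal lung, and the change was 3.04 ± 0.46 (SE, limma, adjusted p = 7.20e-05). Gene counts do not separate the products of the locus.

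Nespas, the paternally expressed antisense RNA of the locus, rested on 1 read over the 5 normal lungs, in normal lung 3. Over the 7 tumors, in order, its counts were 8.86, 13.1, 171, 194, 163, 148 and 42.3, from 900 reads in all. Every tumor exceeded normal lung, and the ratio of reads, corrected for depth, was 398 with a 95% counting interval of 71.3 to 15745. The fitted change was 5.75 ± 0.79 (SE, limma, adjusted p = 3.10e-05). Nespas shares exon sequence with Gnas on the opposite strand, so reads of one may have been counted for the other.

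**Figure D3:**
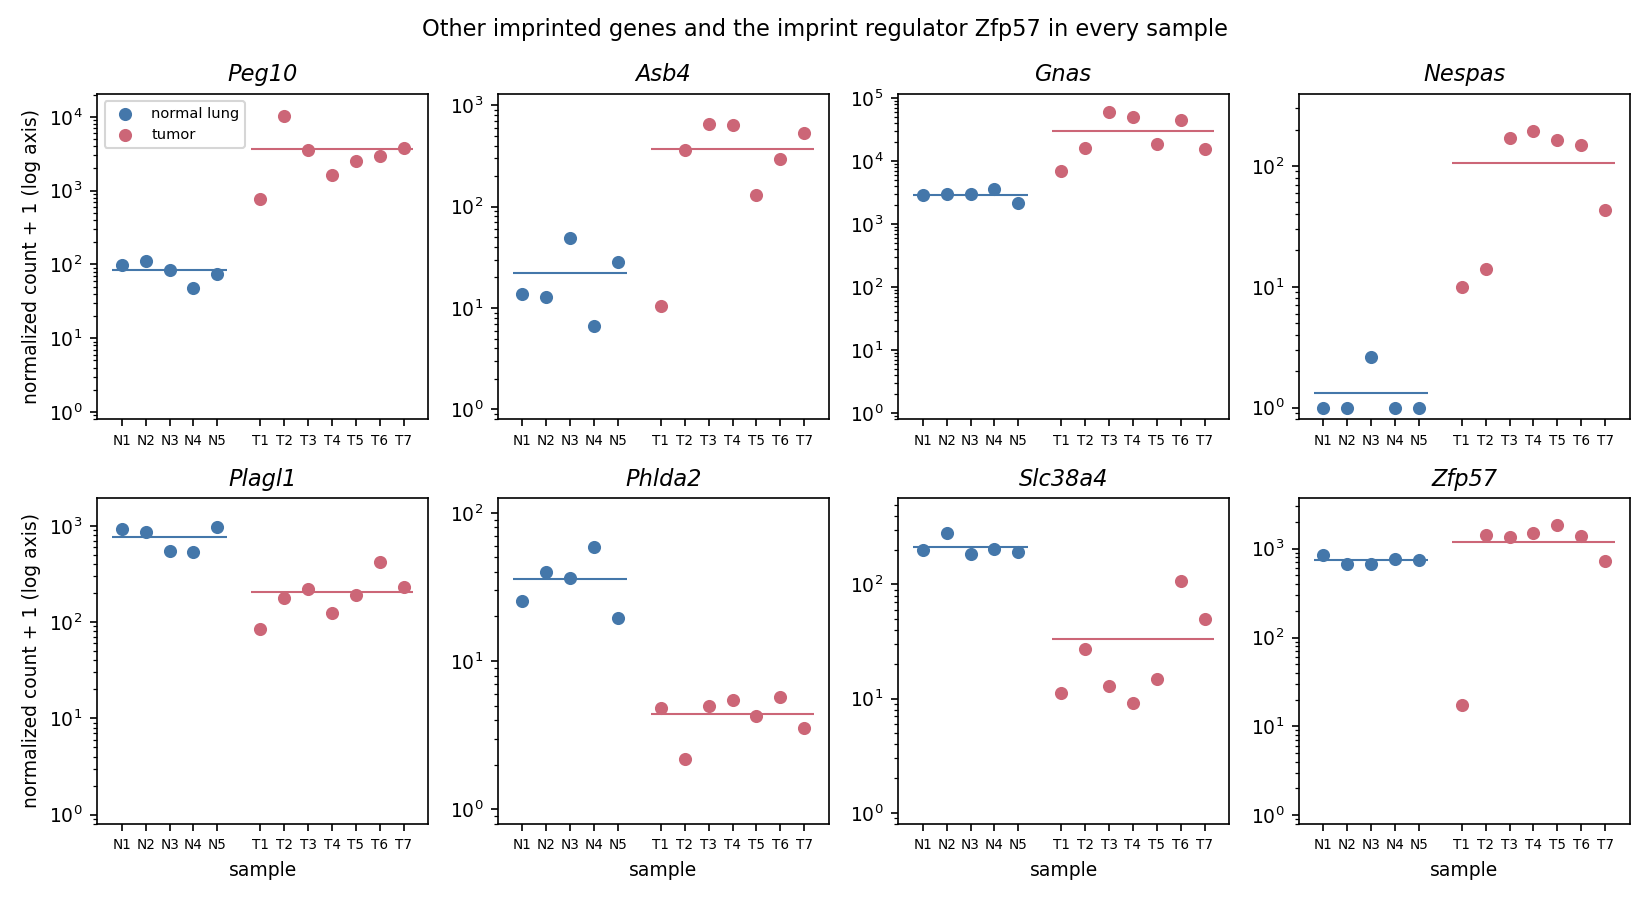
Normalized count + 1 on a log axis in each normal lung (N1 to N5, blue) and tumor (T1 to T7, red) for Peg10, Asb4, Gnas, Nespas, Plagl1, Phlda2, Slc38a4 and the imprint regulator Zfp57; lines are group means. For Peg10, Gnas and Nespas all tumors lie above all normal lungs, for Plagl1, Phlda2 and Slc38a4 they lie below, and Zfp57 is at 16.5 in tumor 1 alone.

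The 3 members that fell are known as restraints on growth or as a nutrient carrier, and none shares a domain with those above. Plagl1, a zinc finger transcription factor that can halt the cell cycle, had counts of 922, 857, 541, 529 and 964.5 in normal lungs 1 to 5. From tumor 1 to tumor 7 Plagl1 had 83.6, 175, 217, 123, 189, 418.5 and 230 counts. All tumors were below all normal lungs, and the change was -1.997 ± 0.337 (SE, limma, adjusted p = 0.000188). Phlda2, a maternally expressed gene that limits placental growth, had counts of 24.5, 38.7, 35.5, 57.8 and 18.4 in normal lungs 1 to 5. In tumors 1 to 7 the Phlda2 counts were 3.80, 1.19, 3.97, 4.49, 3.24, 4.72 and 2.56, which rest on 31 reads in all. The groups did not overlap (-2.98 ± 0.37, SE, limma, adjusted p = 1.42e-05).

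Slc38a4, a transporter of neutral amino acids that is expressed from the paternal copy, had counts of 199, 281, 184, 203 and 190 in normal lungs 1 to 5. Across tumors 1 to 7 Slc38a4 had 10.1, 26.2, 11.9, 8.08, 13.7, 106 and 49.3 counts. Even the highest tumor, tumor 6, was below every normal lung, and the change was -3.23 ± 0.55 (SE, limma, adjusted p = 0.000210). The summed alveolar, endothelial and leukocyte markers given above fell in the same samples, and their part in these 3 changes was not tested.

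In the Mest domain both members had higher means in tumors, and 1 passed. Mest, a paternally expressed gene for a hydrolase-like protein of mesoderm, had counts of 152, 160, 189, 176 and 197 in normal lungs 1 to 5. Over the 7 tumors, in order, Mest had 374, 472, 317, 198, 216, 210 and 200 counts. Every tumor was above every normal lung, although tumor 4 was so by fewer than 3 counts, and the change was 0.62 ± 0.24 (SE, limma, adjusted p = 0.0398). The Mest call was lost with any 1 normal lung or any 1 of tumors 1, 2 and 3 left out, at adjusted p from 0.0507 without normal lung 5 to 0.0859 without normal lung 1 (limma), and with the Y-linked covariate (limma, adjusted p = 0.0813). Copg2, a coat protein of Golgi transport vesicles, overlaps Mest on the opposite strand and had 1230 to 1915 counts in normal lung and 1196 to 6144 in tumors (0.84 ± 0.37, SE, limma, adjusted p = 0.0619). Without tumor 3 or without tumor 4 it passed, at 1.02 and 0.98 (limma, adjusted p = 0.0223 and 0.0369). It also passed in edgeR (1.29, adjusted p = 0.0104) and DESeq2 (1.22, adjusted p = 0.00389), but both of these fits left out tumor 3 as well.

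Impact, a paternally expressed regulator of protein synthesis under amino acid shortage, showed a small rise. It had 832 to 1055 counts in normal lung, and 837 in tumor 2 against 1225 to 1484 in the other 6 tumors (0.39 ± 0.15, SE, limma, adjusted p = 0.0316). That call was lost with any 1 of normal lungs 2 to 5 or tumors 1, 5 and 6 left out, at adjusted p from 0.0501 without tumor 1 to 0.0748 without normal lung 4 (limma), and with the Y-linked covariate (limma, adjusted p = 0.0770). It was also lost with same-numbered tumors averaged (0.31, limma, adjusted p = 0.133) or treated as correlated (0.36, limma, adjusted p = 0.0601), and without the tumors titled trachea (0.37, limma, adjusted p = 0.0647).

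For the growth-control genes of the Igf2 pathway among the members, no difference passed. H19, the maternally expressed noncoding RNA beside Igf2, was at 3.87, 14.0, 8.46 and 12.6 in normal lungs 1, 2, 4 and 5 and at 699 in normal lung 3. From tumor 1 to tumor 7 the H19 counts were 12.03, 90.5, 27.8, 24.2, 21.8, 20.2 and 384. No tumor exceeded normal lung 3, and the change was 0.79 ± 1.13 (SE, limma, adjusted p = 0.565). Without normal lung 3 the H19 change was 2.02 (limma, adjusted p = 0.0481). With the Y-linked covariate it was -1.84 (limma, adjusted p = 0.160). In that fit normal lung 3 was the only normal lung with a Y-linked level of 0. The 8 cardiac muscle markers summed to 42896 in tumor 7 against 896 to 3274 in the other tumors. In normal lung they summed to 498 to 4759, with 3012 in normal lung 3. The highest sum was in normal lung 5, where H19 was at 12.6. Among them Nppa was at 7498 in tumor 7 and 342 in normal lung 3, each the highest of its group, and Myh6 was at 0 in tumor 3. Of the normal lungs, Actn2 also peaked in normal lung 3, whereas Myh6, Myl7, Tnnt2, Tnni3, Myl4 and Ryr2 peaked in normal lung 5. The part of these markers in the H19 values was not tested. Igf2r, the receptor that clears IGF2, had 1312 to 2180 counts in normal lung and 834 to 1912 in tumors (-0.29 ± 0.22, SE, limma, adjusted p = 0.263).

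Airn, the paternal noncoding RNA that overlaps Igf2r and silences it in cis, had 1247 to 2304 and 789 to 2033 counts (-0.16 ± 0.23, SE, limma, adjusted p = 0.573). Grb10, an adaptor that damps insulin and IGF receptor signalling, varied among tumors. It had 1285 to 1583 counts in normal lung, and 634, 510, 2030, 2765, 2474, 1303 and 3489 in tumors 1 to 7. Tumors 1 and 2 were below and 4 tumors above all normal lungs, so the groups did not separate (0.14 ± 0.43, SE, limma, adjusted p = 0.793). Its sign changed without tumor 4 (-0.00064) or without tumor 7 (-0.06).

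The remaining members did not pass or were too low to test. Zdbf2, a paternally expressed zinc finger gene of pituitary and hypothalamus, had 5.64 to 19.5 counts in normal lung and 4.77 to 42.3 in tumors (0.40 ± 0.52, SE, limma, adjusted p = 0.522). Dcn, which encodes the matrix proteoglycan decorin made by fibroblasts, had 1233 to 2146 counts in normal lung and 340, 1371, 34.7, 1263, 43.7, 443 and 3148 in tumors 1 to 7. Tumor 7 was above and 4 tumors below all normal lungs (-1.90 ± 0.98, SE, limma, adjusted p = 0.107), and without tumor 7 the change was -2.41 (limma, adjusted p = 0.0289). Dcn also passed as lower without the tumors titled trachea (-2.47, limma, adjusted p = 0.0376) and with same-numbered tumors averaged (-1.70, limma, adjusted p = 0.00719). In edgeR and DESeq2, which left out tumor 3, it was at -0.32 and -0.41 (adjusted p = 0.715 and 0.641). The 9 fibroblast markers summed to 28953 to 44096 in normal lung and, in tumors 1 to 7, to 4739, 11524, 7823, 26263, 7884, 14847 and 36808, none of them at 0 in any sample. Only 3 of them fell in limma's test (Pdgfra, Pdgfrb and Mfap4), and the others, among them Col1a1, Col1a2 and Col3a1, did not pass. Mfap4 made up a large part of the normal sum, at 10884 to 17319 against 10.9 to 1004 in tumors. The part of these markers in the Dcn values was not tested. Snrpn, the paternal splicing-factor gene of the Prader-Willi domain, was at or below 1.08 in all 12 samples, from 1 read in normal lung and 3 in tumors, and was not tested. Of its exon length, 27.3% is shared with the listed gene Gm38393 on the same strand. Reads from there may not have been counted for Snrpn, so these counts do not show that its RNA was absent.

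In 4 of 7 pairs tested, neighbours in a domain changed by unequal amounts. For each pair, the difference in log2(normalized count + 1) between the 2 genes was taken in each sample and compared between groups by permutation (exact and two-sided, 792 splits), with p-values adjusted over the 7 pairs. The smallest p such a test can give is 0.00126. Usp29 gained on Peg3, with which it shares a promoter region. Usp29 minus Peg3 rose by 2.99, from -4.62 ± 1.17 (SD) in the 5 normal lungs to -1.64 ± 0.62 in the 7 tumors (exact permutation p = 0.00126, adjusted 0.00442). No tumor value (-2.55 to -0.91) fell into the normal range (-6.51 to -3.39). Tumor 1 had little of either RNA, with Peg3 below every normal lung and Usp29 only just above the highest. In the other tumors both genes were above every normal lung.

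Sgce lagged behind Peg10, by -4.64 (3.60 ± 0.55 against -1.04 ± 1.22, SD, n = 5 and 7, exact permutation p = 0.00126, adjusted 0.00442). Nespas gained on Gnas by 2.70 (exact permutation p = 0.00253, adjusted 0.00589), a value that depends on the pseudocount because of the near-empty normal lungs. The pair Meg3 minus Dlk1 fell by 2.44 (8.82 ± 1.06 to 6.37 ± 1.82, SD, n = 5 and 7, exact permutation p = 0.0265, adjusted 0.0464). With Dlk1 at 0 in normal lung, that difference also hangs on the pseudocount. It lost its adjusted p when any 1 normal lung or any 1 of tumors 2, 3 and 4 was left out, at -2.71 to -2.00025 and adjusted p of 0.0530 to 0.0902 (exact permutation).

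The other 3 pairs did not pass. The pair Zim1 minus Peg3 differed by -1.33 (exact permutation p = 0.110, adjusted 0.154). Without tumor 1 it was -1.76 (exact permutation p = 0.0173, adjusted 0.0303). Copg2 minus Mest differed by 0.22 (exact permutation p = 0.681), and by -0.07 without tumor 7. Airn minus Igf2r differed by 0.13 (exact permutation p = 0.501, adjusted 0.585). The tumor means were 0.903 times the normal mean for Airn and 0.828 times for Igf2r. Their spans overlap on opposite strands, but their annotated exons do not.

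**Figure D4:**
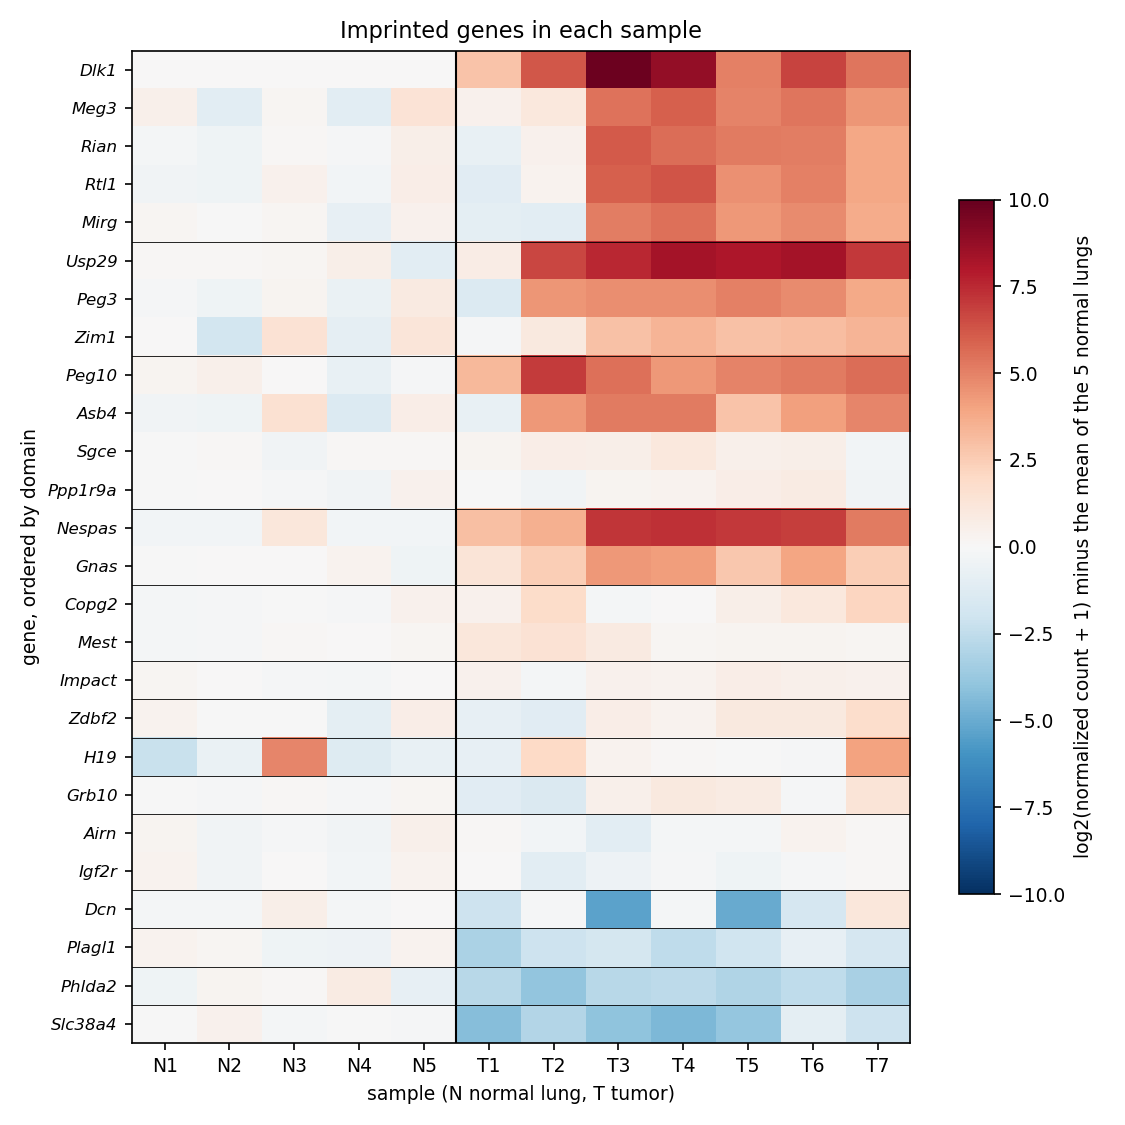
Each sample's log2(normalized count + 1) minus the mean of the 5 normal lungs, for the 26 tested members in rows ordered by domain, with normal lungs N1 to N5 and tumors T1 to T7 in columns; the colour scale runs from -10 (blue) to 10 (red). Tumors 3 to 7 are red for the Dlk1-Meg3, Peg3 and Gnas domains. Tumor 2 is red for Dlk1, Peg3, Usp29, Peg10, Asb4, Gnas and Nespas but pale for Meg3, Rian, Rtl1, Mirg and Zim1. Tumor 1 is pale for most of these genes.

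The imprinted genes differed widely among the tumors themselves. The median SD of log2 values over the 7 tumors was 1.23 for the members and 0.63 for all genes tested, and over the 5 normal lungs it was 0.41 and 0.35. Rtl1 had the highest tumor SD, 2.84, a spread wider than that of 99.0% of genes tested, and Mirg followed at 2.82. Usp29 and Rian had tumor SDs of 2.71 and 2.70. Impact was the most even, with an SD of 0.26, below which 8.76% of genes tested lay. The highest tumor exceeded the lowest by 206 times for Usp29, 197 times for Rtl1, 137 times for Dlk1 and 115.96 times for Rian, but by 1.77 times for Impact and 2.29 times for Igf2r.

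Tumor 1 was the lowest tumor for Dlk1, Meg3, Rian, Rtl1, Peg3, Usp29, Zim1, Peg10, Asb4, Gnas, Nespas, H19 and Plagl1, and tumor 2 the lowest for Mirg. Tumor 1 carried the neuroendocrine markers of the other tumors, with a sum of 120698 normalized counts, and it was the tumor with Y-linked RNA. Tumor 2, whose neuroendocrine markers summed to 55144 and whose Y-linked level was 0, had low Meg3, Rian, Rtl1 and Mirg but the highest Peg10 and a Peg3 count of 7218. The tumors with number 159 were the highest 2 for Dlk1, Meg3, Rian, Rtl1, Mirg, Asb4, Gnas and Nespas. Without the 2 tumors titled trachea, 14 members were higher and 4 lower, beside 32.1% and 32% of all genes.

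Per kilobase of exon, the order of the members differed between the groups. In normal lung Airn was highest, at 458 ± 127 normalized counts per kilobase (SD, n = 5), followed by Copg2 at 274 ± 56.3, Gnas at 261 ± 45.6 and Dcn at 254 ± 66.5, and the last 3 did not differ beyond their spread. In tumors Gnas was highest, at 2704 ± 1847 (SD, n = 7), followed by Meg3 at 722 ± 561, Copg2 at 573 ± 370, Peg10 at 548 ± 470 and Peg3 at 526.3 ± 273.9, which overlapped one another. Of these, Meg3 ranked 15, Peg10 17 and Peg3 16 of 27 in normal lung. Dlk1 came to 39.5 ± 56.7 per kilobase in tumors, rank 19. The length is that of all annotated exons in GENCODE M21, so these levels are approximate where one isoform dominates. The annotation and use of strand in counting are not given. This limits the rank of Airn, whose span overlaps Igf2r on the opposite strand.

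Genes that keep imprints were also measured, from a list of 23 imprint regulators of which 22 were tested. In limma's test 13 rose (59.1%) and 2 fell (9.09%), beside 31.4% and 30.1% of all genes, and without normal lung 2 only 1 fell. The median change was 0.49, beside 0.04 for all genes. Dnmt1, the maintenance DNA methyltransferase, had 450 to 801 counts in normal lung and 2897 to 7389 in tumors (3.13 ± 0.22, SE, limma, adjusted p = 7.03e-08). Uhrf1, which brings DNMT1 to replicated DNA, and Hells, a chromatin remodeller needed for methylation, rose by 4.96 ± 0.23 and 4.94 ± 0.35 (SE, limma, adjusted p = 1.69e-09 and 5.54e-08). Tet1, which starts the removal of methylation, rose by 2.55 ± 0.30 (SE, limma, adjusted p = 8.42e-06). Dnmt3l, the cofactor that sets imprints in germ cells, fell by 1.85 ± 0.39 (SE, limma, adjusted p = 0.00105), from 14.1 to 27.5 counts to 0.99 to 6.96.

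Zfp57, the zinc finger protein that protects imprints after fertilization, stood out by 1 tumor. Its counts were 856, 666, 672, 763 and 743 in normal lungs 1 to 5. In tumors 1 to 7 the Zfp57 counts were 16.5, 1409, 1365, 1505, 1849, 1403 and 724. Tumor 1 was far below every other sample, and 5 tumors were above all normal lungs. Over all tumors the change was -0.05 ± 0.94 (SE, limma, adjusted p = 0.969). Without tumor 1 it was 0.85 (limma, adjusted p = 0.00379), and without both tumors titled trachea it was 1.02 (limma, adjusted p = 3.58e-05).

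The growth factor axis to which Igf2, Igf2r, H19 and Grb10 belong was followed in a list of 16 other genes, all tested, of which 4 rose (25%) and 8 fell (50%), beside 31.4% and 30.1% of all genes. Igf1r, the receptor that carries the growth signal of IGF1 and IGF2, had 2794 to 4555 counts in normal lung and 264 to 1615 in tumors (-2.12 ± 0.38, SE, limma, adjusted p = 0.000287). Among the binding proteins that hold IGFs outside cells, Igfbp5 rose by 2.76 ± 0.40 (SE, limma, adjusted p = 5.54e-05), and Igfbp1, without a read in normal lung, had 9.53 to 65.4 counts in tumors, at least 6.97-fold over the limit of 3 reads per normal library. Igfbp6, Igfbp2 and Igfbp7 changed by -6.15, -4.78 and -2.31 (limma, adjusted p = 0.000208, 6.49e-06 and 0.000350). Igf2bp1, a fetal protein that binds Igf2 messenger RNA, fell by 4.67 ± 0.44 (SE, limma, adjusted p = 9.65e-07), with 0 to 3.84 counts in tumors.

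Igf1, named after its values were seen, had a pattern over tumors like that of Meg3. Igf1 counts were 335 to 1051 in normal lung, 156 and 237 in tumors 1 and 2, and 2179 to 6735 in tumors 3 to 7 (1.55 ± 0.86, SE, limma, adjusted p = 0.133). It passed without tumor 1, at 2.11 (limma, adjusted p = 0.0181), or without tumor 2, at 2.01 (limma, adjusted p = 0.0397), and in edgeR and DESeq2 (2.27 and 2.22, adjusted p = 0.0288 and 0.00638). With the Y-linked covariate the Igf1 change was 0.03 (limma, adjusted p = 0.980), and with same-numbered tumors averaged 0.68 (limma, adjusted p = 0.553).

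A second list held 33 further imprinted genes, of which 29 were in the table and 28 tested. Here 10 rose (35.7%) and 12 fell (42.9%), beside 31.4% and 30.1% of all genes, with a median change of 0.02. With the Y-linked covariate 5 rose (17.9%), beside 24.8% of all genes. Ddc, the dopa decarboxylase of monoamine-making and neuroendocrine cells, had 34.8 to 86.2 counts in normal lung and 6587 to 29157 in tumors (7.80 ± 0.38, SE, limma, adjusted p = 2.64e-09). Kcnk9, a maternally expressed potassium channel of neurons, had 1 read in normal lung and 8.23 to 226 counts in tumors (5.63 ± 0.74, SE, limma, adjusted p = 2.23e-05), a ratio of reads of 357 with a 95% counting interval of 63.9 to 14119. Begain, which lies beside Dlk1, and Inpp5f rose by 2.12 ± 0.43 and 1.16 ± 0.18 (SE, limma, adjusted p = 0.000789 and 9.99e-05). Unlike Meg3 or Rian, Begain was higher in all 7 tumors, at 442 to 2085 counts against 125 to 375.

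Among those that fell, Osbpl5 and the Polycomb gene Sfmbt2 changed by -3.87 and -3.81 (limma, adjusted p = 7.15e-07 and 0.000111). Peg12, of the Prader-Willi domain, and Pon2, near Peg10, changed by -3.63 and -3.08 (limma, adjusted p = 0.000120 and 1.82e-05). Cdkn1c, the imprinted inhibitor of cyclin-dependent kinases from the domain of Phlda2, had 326 to 732 counts in normal lung and 361 to 2996 in tumors (1.20 ± 0.44, SE, limma, adjusted p = 0.0313). Unlike Phlda2 and Osbpl5, it therefore did not fall. That describes Cdkn1c only and not the domain as a whole. The Cdkn1c call was lost with any 1 of normal lungs 1 and 3 or tumors 3, 4, 5 and 6 left out, at adjusted p from 0.0542 without tumor 3 to 0.0790 without normal lung 3 (limma). It was also lost for Cdkn1c with the Y-linked covariate (1.14, limma, adjusted p = 0.134) and with same-numbered tumors averaged (0.85, limma, adjusted p = 0.133) or treated as correlated (1.07, limma, adjusted p = 0.0663).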

How the data were processed

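The authors deposited 1 table of normalized read counts (a signal on a common scale, 30399 genes by 12 samples); the submitters' processing notes name GRCm39, featureCounts and DESeq2. Aligner, annotation and use of strand are not given in the sources used here. Every column held whole multiples of 1 step (tolerance 0.001), so reads were recovered. Only 11 samples entered the count tests, because tumor 3, with a size factor of 1.01, failed a check of the unit of recovered reads. Its recovered reads were still used in read totals and ratios of reads. Size factors ran from 0.619 to 1.58. No samples were duplicates (31 same-group pairs, smallest chi-square per degree of freedom 18.4). GENCODE M21 named 29982 identifiers; because its build differs, no coordinates of the table are given, and sequences come from RefSeq tables.

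The main test was limma 3.58.1 (R 4.3.3) with trend on log2(value + 1), for genes with a mean of at least 1, adjusted by Benjamini-Hochberg over all; changes on this scale understate low genes. Alternatives were other pseudocounts, filters and scalings, edgeR 4.0.16, DESeq2 1.42.0, title numbers and samples left out. Members and lists were chosen with earlier results of these data known. All members were named; of the other lists, the 4 largest changes in each direction with groups that do not overlap, plus Cdkn1c, Igf1r, Igf2bp1, Zfp57 and Dnmt1. The model scripts were tested on simulated data. Of 10 chosen pairs, 7 were tested; the others held a gene not analysed here.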

Additional observations from a re-analysis of the deposited data

Results flagged for a closer look

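In 96 groups of 5 normal lungs or 7 tumors, 1 sample lay apart from the rest by Dixon's gap test in 11, and chance alone does so in about 1 in 20 groups. In 2 of the 11 (Nespas and Kcnk9 in normal lung) the test is void, because a single read beside zeros always meets it, which leaves 9. Tumor 1 was the low sample for Peg3 (131 normalized counts, others 4612 to 11339), Usp29 (21.5, others 1446 to 4439), Asb4 (9.50, others 128 to 647) and the imprint regulator Zfp57 (16.5, others 724 to 1849). Tumor 2 was low for Impact (837, others 1225 to 1484) and tumor 7 for Dnmt1 (2897, others 5419 to 7389). Normal lung 3 was high for H19 (699, others 3.87 to 14.0) and held the 1 normal read of Nespas (1.62). Normal lung 5 was high for Copg2 (1915, others 1230 to 1347) and held the 1 normal read of Kcnk9 (1.15). Normal lung 2 was high for Slc38a4 (281, others 184 to 203). No cause was tested.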

How the results depend on the processing

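Of 1175 values of 49 named genes under 24 alternatives, 1079 kept their direction and their side of the threshold, and 30 genes did so under every alternative that gave a value. Limma on the 11 samples of the count tests and limma without tumor 3 are the same fit, so its values enter this tally under both names. Members called higher numbered 10 to 16 under every alternative except the Y-linked covariate, which gave 5, and members called lower 3 to 4. The same covariate gave 5 for the further imprinted genes called higher. Imprint regulators called lower numbered 1, not 2, in DESeq2, in edgeR, at a mean of at least 10, with the Y-linked covariate and without normal lung 2. Signs changed for Airn in edgeR (0.0460) and at equal totals (0.0482), for H19 in edgeR (-0.53) and with the Y-linked covariate (-1.84), and for Zdbf2 with that covariate (-0.0374) and with same-numbered tumors averaged (-0.0539). Grb10 changed sign with the covariate (-0.34), with same-numbered tumors averaged (-0.29) or correlated (-0.0274), and ranged from -0.0565 to 0.41 with 1 sample left out. Zfp57 changed sign in DESeq2 (0.66), edgeR (0.71), at equal totals (0.16) and without the trachea-titled tumors (1.02), and ranged from -0.27 to 0.85 with 1 sample left out. With 1 sample left out, Meg3 minus Dlk1 ranged from -2.85 to -2.00025, Copg2 minus Mest from -0.0707 to 0.43 and Zim1 minus Peg3 from -1.76 to -0.97. Zim1 minus Peg3 was -2.04 without the trachea-titled tumors. Equal totals raised the median change of all genes by 0.19 and edgeR by 0.10. The cause of these shifts was not tested. No paired analysis was possible because the labels give the 2 groups no shared replicate numbers. At this depth values under about 4.85 cannot be ranked, which limits Snrpn, Phlda2 in tumors and Dlk1 and Nespas in normal lung.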
